A study of Papio hamadryas with 14 samples.

Results

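The genes described here carry the natriuretic peptide and cyclic GMP (cGMP) signal: the receptors NPR1, NPR2 and NPR3, the soluble guanylyl cyclase subunits GUCY1A1 and GUCY1B1, the cGMP-dependent kinases PRKG1 and PRKG2, and the phosphodiesterase PDE5A. These 8 genes were chosen by name as members of the pathway, with their values in these kidneys already known, so calls on them describe the data and are not independent evidence. A probe set, the group of short probes that reports a transcript, was taken where the platform annotation gives it one of these names and no other. Of the 8 genes, 6 had a probe set, with 10 probe sets between them out of 16186 on the array. No probe set is named for NPR2 or PRKG1 in that annotation, so both were not analysed here.

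RNA came from intact kidneys of the baboon Papio hamadryas, with no treatment named in the labels. The groups were fetal kidneys at 60 days of gestation (60dG, n = 2), 90dG (n = 3), 125dG (n = 3) and 160dG (n = 3), and kidneys of adults of 6, 12 and 7 years (adult replicates 1, 2 and 3). The labels call the fetal replicates biological. All samples were hybridised to human Affymetrix arrays, so a probe set may read a diverged baboon transcript at a lower signal, and no gene's level was set against another gene's. The 11 fetal arrays share 1 array type and the 3 adult arrays are of another.

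Natriuretic peptides are hormones of the heart and vessels that promote loss of salt and water by the kidney. NPR1 and NPR2 are receptors whose inner domain makes cGMP when peptide binds, whereas NPR3 lacks a cyclase domain and takes peptide up for breakdown. Nitric oxide raises cGMP by another route, through the soluble cyclase formed of an alpha subunit, such as GUCY1A1, and the beta subunit GUCY1B1. The kinases PRKG1 and PRKG2 act on the cGMP formed, and PDE5A hydrolyses it. In the kidney the pathway is known for its actions on glomerular filtration, vascular tone, renin release and sodium transport.

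The median probe set of a fetal array had a signal of 172.9 to 194.6, that of an adult array 210.2 to 214.4, and the number of arrays limits the precision. The kidney tubule marker LRP2 was present in every group, with a mean signal of 803 at 60dG and 4821 in adults. Not every tubule marker was bright in the fetal kidney. AQP1 had means of 279.5 at 60dG and 6744 in adults, and SLC22A6 9.95 and 767. A pair of arrays stood apart by markers of another tissue. On 60dG replicate 2 the summed signal of 5 adrenal marker genes was 7078, against 190 to 416.5 on the other fetal arrays. Most of it came from CYP17A1 (4960.3), STAR (1096.5, where the other fetal arrays had 5.8 to 13.3) and CYP11A1 (727.8). The other markers, HSD3B2 and MC2R, had 60dG means of 85.3 and 130.0, and 63.8 and 182.3 at 90dG. On adult replicate 3 the summed signal of 4 muscle marker genes was 4463, against 381 and 658 on the other adult arrays. Most of that sum came from CKM (2347.8) and MYL2 (1544.8). The remaining markers, MYH7 and ACTN2, had adult means of 176.1 and 241.2, and 67.5 and 152.6 at 160dG. The GAPDH 3' to 5' signal ratio, a sign of RNA integrity, was 2.46 and 3.43 on 90dG replicates 2 and 3 and 1.62 to 1.99 on the other fetal arrays.

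Fetal stages were compared with limma on log2(signal + 16), with 1 probe set for each gene, over the 5278 genes whose mean signal lay above 178. Of the 6 measured genes, 4 passed that filter: NPR1, NPR3, GUCY1A1 and GUCY1B1. PRKG2 and PDE5A lay below it, and they and the further probe sets were read from a fit of all 16143 probe sets that are not controls. A gene was called at an adjusted p under 0.05, Benjamini-Hochberg over all genes or probe sets of the fit. Differences are log2 values, later stage minus earlier, with the SE of the fit.

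NPR3, the clearance receptor, had the widest course among the 4 tested genes: high at 60dG, low at 90dG, and high again at 160dG. On its brightest probe set (219054_at) the 60dG arrays read 400.0 and 424.8, the 90dG arrays 193.2, 175.2 and 164.5, the 125dG arrays 245.2, 151.7 and 295.5, and the 160dG arrays 544.6, 444.4 and 564.2. Both 60dG arrays lay above all arrays of 90dG and 125dG and below all of 160dG, while 90dG and 125dG overlapped. The order of the fetal means was 90dG (178 ± 14.5, SD, n = 3), 125dG (231 ± 73.0, SD, n = 3), 60dG (412 ± 17.5, SD, n = 2) and 160dG (518 ± 64.3, SD, n = 3).

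The stages differed for NPR3 in the limma F test (adjusted p = 0.00179). Over all tested genes 18.2% were called by that test. From 60dG to 90dG NPR3 fell by 1.15 ± 0.25 (limma, adjusted p = 0.0140), in a comparison that called 9.11% of the tested genes. In the same step the summed signal of proximal tubule markers was 1302 to 1785 at 60dG and 4311 to 5506 at 90dG, with 3 of 4 tested markers called higher, and that of cell cycle markers was 3929 to 4469 and 1841 to 2402, with 2 of 4 called lower. Their part in the NPR3 difference was not tested. From 90dG to 125dG the difference was 0.31 ± 0.22 (limma, adjusted p = 0.424). From 125dG to 160dG NPR3 rose by 1.15 ± 0.22 (limma, adjusted p = 0.0460), where only 0.322% of tested genes, 17 in number, were called. The net difference between 60dG and 160dG was 0.31 ± 0.25 (limma, adjusted p = 0.499), so the F test and the steps carried a fall and a return that a comparison of the end stages did not show.

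**Figure D1:**
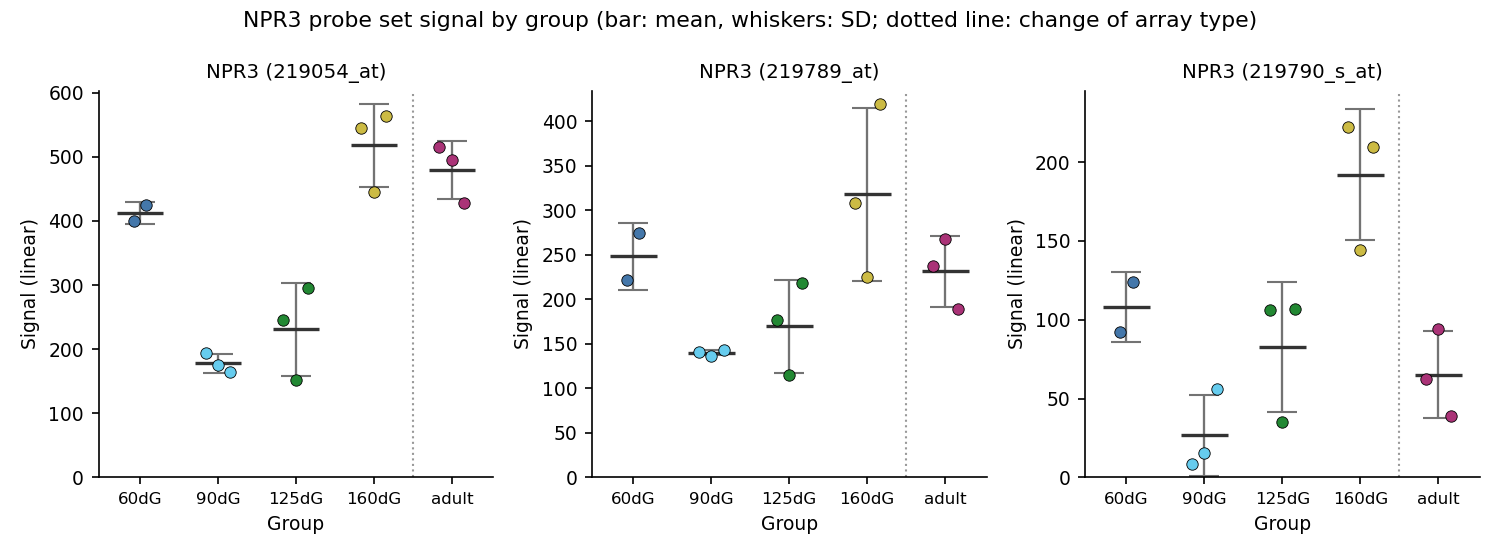
Linear signal of the 3 NPR3 probe sets on every array, by group; points are arrays, the bar is the group mean and the whiskers are the SD, and the dotted line marks the change of array type. All 3 probe sets have their lowest fetal mean at 90dG and their highest at 160dG.

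The early fall and the late rise did not rest equally on the arrays. The fall to 90dG kept its call in 17 of 20 alternative settings, with differences from -1.22 to -0.98. Without 60dG replicate 2, the array with adrenal markers, the difference was -1.11 (limma, adjusted p = 0.0857), and without 60dG replicate 1 it was -1.19 (adjusted p = 0.0894), so the call needed both arrays while the size stayed. With the GAPDH ratio as a covariate the difference was -1.01 (limma, adjusted p = 0.0673). The rise to 160dG kept its call in 4 of 21 alternative settings, with differences from 0.90 to 1.34 and limma adjusted p from 0.0242 to 0.219. The F test kept its call in 21 of 21, with adjusted p from 0.00117 to 0.0172.

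The other NPR3 probe sets also had their low at 90dG and their high at 160dG, but neither step was called on them. On 219789_at the signal was 221.9 and 275.0 at 60dG, 141.1, 136.9 and 142.8 at 90dG, 176.4, 114.6 and 218.8 at 125dG, and 308.5, 225.7 and 419.5 at 160dG. Here too all arrays of 60dG and of 160dG lay above all arrays of 90dG and 125dG, and 60dG and 160dG overlapped. On 219790_s_at, the dimmest, the signal was 92.2 and 123.7 at 60dG, 8.4, 15.6 and 55.9 at 90dG, 106.2, 35.4 and 107.0 at 125dG, and 222.3, 144.5 and 209.4 at 160dG. Every 160dG array lay above every earlier array there, and 125dG overlapped with 60dG. In the limma fit of all probe sets the step from 60dG to 90dG was -0.75 ± 0.31 (adjusted p = 0.208) on 219789_at and -1.69 ± 0.51 (adjusted p = 0.0822) on 219790_s_at. The step from 125dG to 160dG was 0.84 ± 0.28 (limma, adjusted p = 0.547) and 1.16 ± 0.45 (adjusted p = 0.700). In that larger fit 219054_at kept the first call (-1.15 ± 0.26, limma, adjusted p = 0.0296) and not the second (1.15 ± 0.23, adjusted p = 0.112). In the fit of all probe sets the stages differed for 219054_at (limma F, adjusted p = 0.00479) and 219790_s_at (adjusted p = 0.0216), and 219789_at missed the threshold (adjusted p = 0.0783). These were the 2 called of the 10 probe sets, against 1292 of 16143 overall. Over the 11 fetal arrays, which share their stages, the log2 values of the 3 probe sets correlated pairwise at 0.85, 0.86 and 0.95.

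NPR1, the cyclase receptor for atrial and B-type peptides, did not pass the test in any fetal comparison. On its brighter probe set (32625_at) the signal was 281.8 and 207.7 at 60dG, 301.8, 256.2 and 401.5 at 90dG, 263.0, 401.8 and 297.2 at 125dG, and 382.8, 309.0 and 373.1 at 160dG. The stages overlapped except that all 160dG arrays lay above both 60dG arrays. The means ran from 245 ± 52.4 (SD, n = 2) at 60dG through 320 ± 74.3 and 321 ± 72.3 (SD, n = 3 each) to 355 ± 40.1 (SD, n = 3) at 160dG. Arrays of neighbouring stages in that order overlapped, and no step between them was called. The difference from 60dG to 160dG was 0.52 ± 0.25 (limma, adjusted p = 0.208), and 11.6% of tested genes were called in that comparison.

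The dimmer NPR1 probe set (204648_at) had its highest means in mid gestation, 216 ± 21.5 (SD, n = 3) at 90dG and 208 ± 48.9 (SD, n = 3) at 125dG, with 159 ± 40.0 (SD, n = 2) at 60dG and 171 ± 46.9 (SD, n = 3) at 160dG. Its F test gave an adjusted p of 0.659 in the limma fit of all probe sets. The log2 values of the 2 NPR1 probe sets correlated at 0.64 over the 11 fetal arrays, so they shared part of their course only. From 60dG to 90dG the NPR1 differences were 0.36 ± 0.25 and 0.43 ± 0.30, neither of them called. The NPR3 difference in that step, which was called, was -1.15 ± 0.25. The contrast between the genes was not tested.

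GUCY1A1, the alpha subunit of the nitric oxide receptor, had means that went up with gestation, but only its slope was called. Its single probe set (221942_s_at) read 326.5 and 182.6 at 60dG, 392.0, 224.4 and 295.1 at 90dG, 392.2, 360.4 and 385.4 at 125dG, and 348.1, 485.2 and 584.1 at 160dG. Arrays of 125dG and 160dG all lay above both of 60dG, and 90dG overlapped every other fetal stage. The means were 255 ± 102 (SD, n = 2), 304 ± 84.1, 379 ± 16.7 and 472 ± 119 (SD, n = 3 each) in order of age, and neighbouring stages in that order did not differ past the threshold.

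The slope of GUCY1A1 was 0.09 ± 0.03 per 10 days (limma, adjusted p = 0.0394), in a test that called 9.74% of tested genes. In the limma fit of all probe sets the slope missed the threshold (adjusted p = 0.0745). Among the tested genes the F test over the stages did not call GUCY1A1 (limma, adjusted p = 0.113). No single step was called, at 0.26 ± 0.28, 0.34 ± 0.25 and 0.28 ± 0.25 (limma, adjusted p = 0.598, 0.441 and 0.841). The difference from 60dG to 160dG was 0.88 ± 0.28 (limma, adjusted p = 0.0611). The slope leaned on the array with adrenal markers, 60dG replicate 2, which had the lowest GUCY1A1 signal of the series. Without that array the slope was 0.07 (limma, adjusted p = 0.139) and the difference from 60dG to 160dG was 0.48 (adjusted p = 0.457). Without 160dG replicate 3, which had the highest signal, the slope was 0.07 (adjusted p = 0.132). Over 21 alternatives the slope lay between 0.07 and 0.11 and lost its call in 9.

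GUCY1B1, the obligate partner of the alpha subunits, showed no called difference between fetal stages. On 203817_at the signal was 504.6 and 375.7 at 60dG, 422.9, 558.8 and 501.8 at 90dG, 566.7, 384.5 and 635.7 at 125dG, and 514.4, 450.1 and 382.8 at 160dG. All fetal stages overlapped, and the slope was 0.00 per 10 days (limma, adjusted p = 0.985). On 211555_s_at the 90dG arrays were low, at 286.5, 158.6 and 217.3, and lay below all 60dG arrays (343.3 and 359.4), all 125dG arrays (307.1, 294.6 and 367.6) and all 160dG arrays (293.5, 335.7 and 345.0). Its differences were -0.67 ± 0.25 into 90dG (limma, adjusted p = 0.156) and 0.55 ± 0.22 out of it (adjusted p = 0.199). The lowest of these arrays, 90dG replicate 2 and replicate 3, were those with the raised GAPDH ratio, whose part in the value was not tested.

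The GUCY1B1 probe sets did not follow each other over the 11 fetal arrays, with a correlation of -0.27. GUCY1A1 correlated at -0.06 with 203817_at and at 0.41 with 211555_s_at. The subunits of a joint enzyme therefore showed no shared course here that both GUCY1B1 probe sets bore out.

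**Figure D2:**
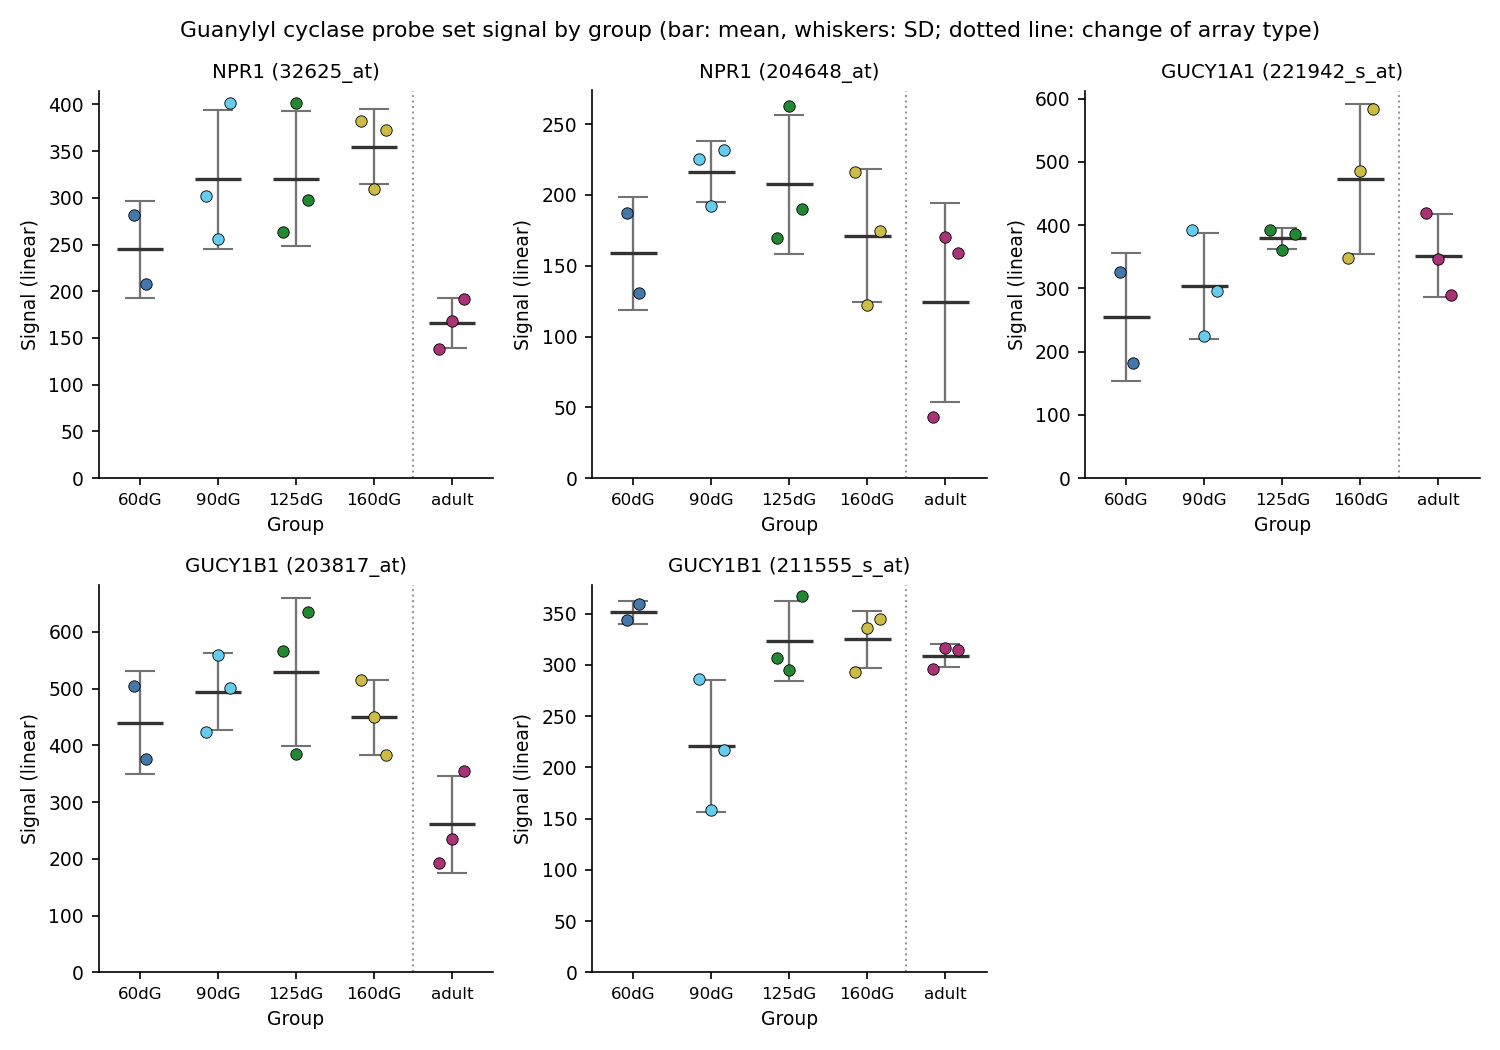
Linear signal of the cyclase probe sets (NPR1, GUCY1A1 and GUCY1B1) on every array, by group; points are arrays, the bar is the mean, the whiskers are the SD, and the dotted line marks the change of array type. GUCY1A1 means go up with gestation, from 255 at 60dG to 472 at 160dG, and the adult arrays of 32625_at (NPR1) and 203817_at (GUCY1B1) lie below all fetal arrays.

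The remaining genes act downstream on cGMP, and their probe sets lay below the filter in the fetal kidney. PRKG2, the membrane-bound kinase, read 37.1 and 130.6 at 60dG, 44.9, 32.6 and 119.5 at 90dG, 21.5, 72.9 and 153.5 at 125dG, and 35.3, 153.4 and 109.5 at 160dG on 207505_at. Arrays within each stage differed by more than the stages did, and all stages overlapped. Its F test gave an adjusted p of 0.943 in the limma fit of all probe sets, and a change between fetal stages was not detectable at this signal.

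PDE5A, the cGMP-specific phosphodiesterase, read 58.8 and 73.4 at 60dG, 35.6, 84.3 and 44.2 at 90dG, 83.6, 102.8 and 165.7 at 125dG, and 148.2, 129.1 and 116.0 at 160dG on 206757_at. All arrays of 125dG and 160dG lay above both of 60dG, and 125dG and 160dG overlapped. The difference from 90dG to 125dG was 0.93 ± 0.35 (limma fit of all probe sets, adjusted p = 0.168). The difference from 60dG to 160dG was 0.84 ± 0.39 (adjusted p = 0.295) and the slope 0.11 ± 0.04 per 10 days (adjusted p = 0.121). None of these passed, although the late means, 117 ± 42.9 and 131 ± 16.2 (SD, n = 3 each), stood above the early ones, 66.1 ± 10.3 (SD, n = 2) and 54.7 ± 26.0 (SD, n = 3).

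**Figure D3:**
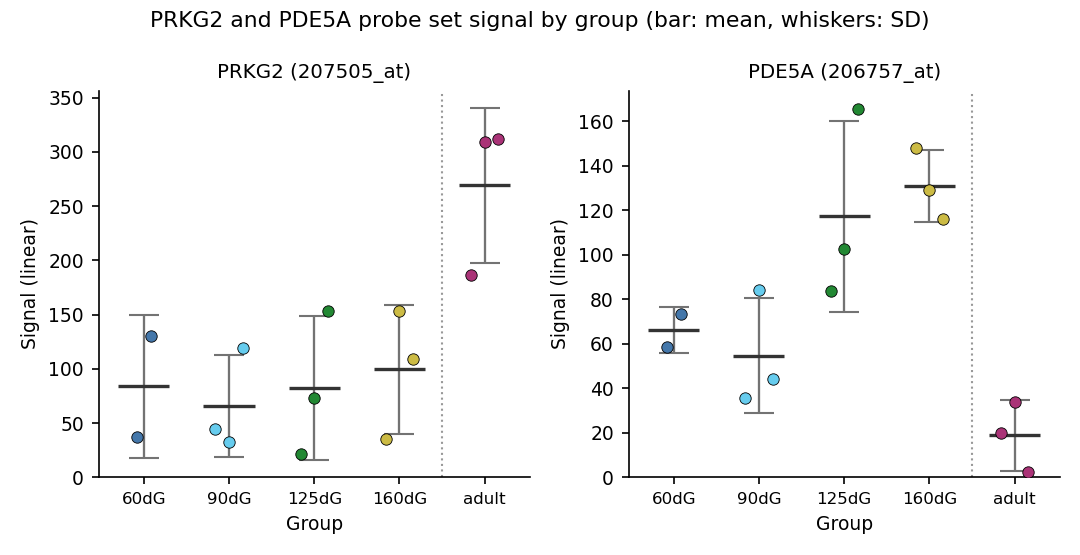
Linear signal of the PRKG2 and PDE5A probe sets on every array, by group; points are arrays, the bar is the mean, the whiskers are the SD, and the dotted line marks the change of array type. Adult arrays lie above all fetal arrays for PRKG2 and below all fetal arrays for PDE5A.

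Step by step, 1 of the 4 tested genes was called from 60dG to 90dG (NPR3), 0 in the next step, and 1 from 125dG to 160dG (NPR3). The comparison of 90dG with 125dG called 5.17% of tested genes by limma. At an unadjusted limma p under 0.05 it also held 0 of the 4, beside 1261 of all 5278 tested genes. Between 60dG and 160dG 0 of the 4 were called by limma, beside 11.6% of tested genes. At an unadjusted limma p under 0.05 that comparison held 1 of the 4 (GUCY1A1), beside 1319 of all 5278. With 4 genes, nothing about the members was read from these counts against the shares over all genes.

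**Figure D4:**
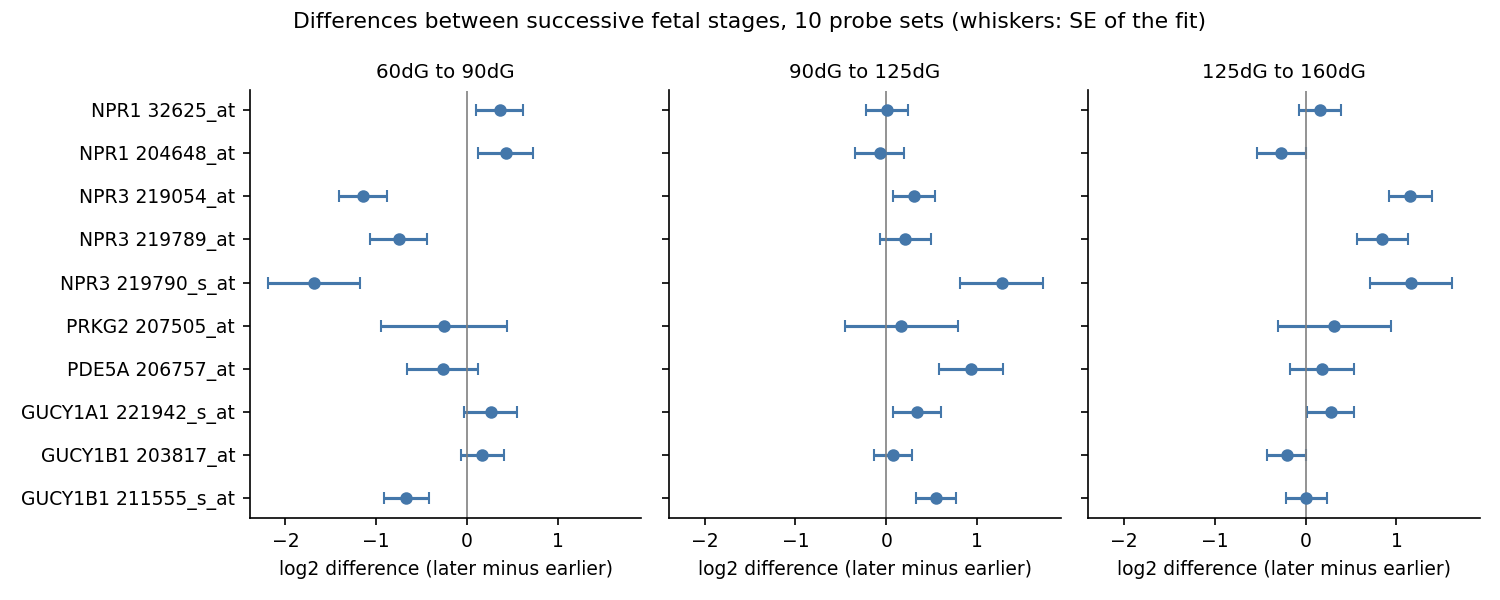
Log2 difference of each of the 10 probe sets for the 3 successive steps, later minus earlier stage, from the limma fit of all probe sets; whiskers are the SE. The 3 NPR3 probe sets lie left of 0 in the step to 90dG and right of 0 in the step to 160dG.

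Adult arrays were set against those of 160dG, the last fetal stage, with no test, since age and array type cannot be told apart. Differences are adult minus 160dG in log2, and a gene was counted where it was at least 2-fold apart with no overlap. Of the 6 measured genes, 3 met this: NPR1 and PDE5A were lower in adults and PRKG2 was higher. Without 160dG replicate 1 only PDE5A met it, and without adult replicate 3 GUCY1B1 joined the other 3. Over all 9580 genes, 8.97% were lower and 13.1% higher by the same rule, 49.7% had no overlap, and the median difference was 0.12. Other scalings put that median at 0.07 and 0.18.

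PRKG2 read 186.9, 308.9 and 311.6 on the adult arrays (269 ± 71.2, SD, n = 3), above all 11 fetal arrays. Its difference from 160dG was 1.44 ± 0.57. Without 160dG replicate 1, whose signal of 35.3 was the lowest of its stage, the difference was 0.93 and fell short of 2-fold.

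PDE5A read 20.1, 34.0 and 2.4 on the adult arrays (18.8 ± 15.8, SD, n = 3), below all fetal arrays. Its difference was -2.19 ± 0.43, and -1.79 without adult replicate 3, the array with muscle markers. The size depends on the pseudocount, at -3.27 with 1 and -1.25 with 64, since these signals are near the bottom of the scale.

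The brighter NPR1 probe set read 138.7, 168.3 and 191.4 in adults (166 ± 26.4, SD, n = 3), below every fetal array, and its difference was -1.03 ± 0.15. That lay at the 2-fold limit: it was -0.98 without 160dG replicate 1, -0.97 with arrays scaled to 1 trimmed mean, -0.87 with a pseudocount of 64 and -1.13 without adult replicate 3. The dimmer NPR1 probe set read 43.2, 170.3 and 159.1, overlapped with 160dG and gave -0.56 ± 0.58.

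GUCY1B1 on 203817_at read 192.0, 234.4 and 355.4 in adults, also below all fetal arrays, with a difference of -0.78 ± 0.27. Without adult replicate 3 it was -1.02 and met the rule. Its other probe set read 295.8, 316.6 and 314.4 and overlapped with 160dG (-0.07 ± 0.07), so the probe sets again disagreed. GUCY1A1 read 419.1, 347.0 and 289.0, which overlapped with 160dG (-0.39 ± 0.26).

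NPR3 in adults stayed near its 160dG signal on the brightest probe set, with 514.6, 495.5 and 427.8 (479 ± 45.6, SD, n = 3) and a difference of -0.10 ± 0.13. These arrays lay above all arrays of 60dG, 90dG and 125dG. The difference was -0.40 ± 0.28 on 219789_at, with overlap, and -1.40 ± 0.34 on 219790_s_at, whose adult signals of 62.6, 93.8 and 38.9 lay below all 160dG arrays. The NPR3 probe sets, alike over the fetal arrays, thus differed in where they placed the adult.

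**Figure D5:**
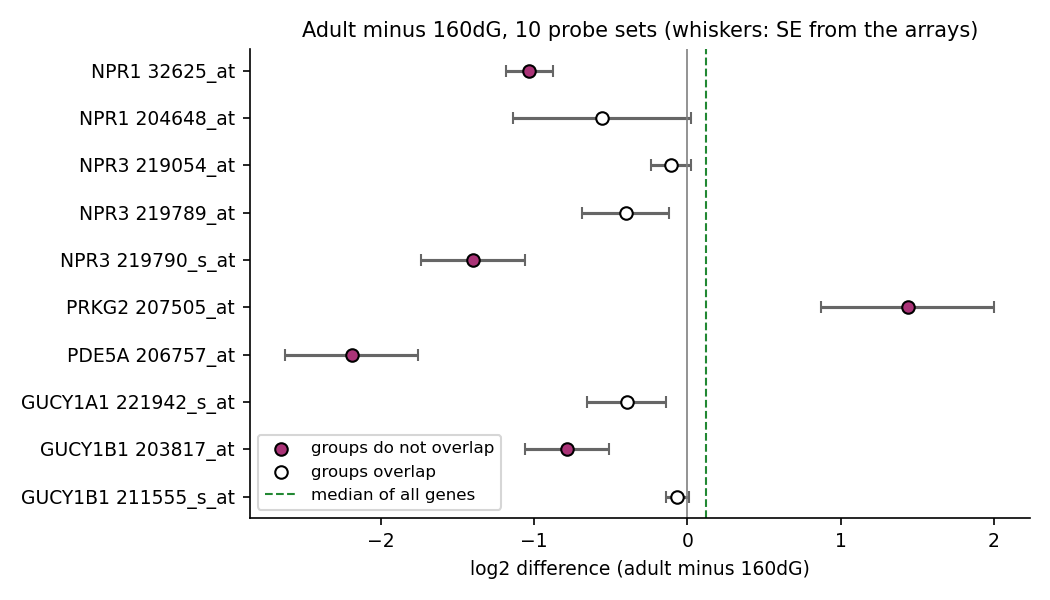
Log2 difference between adult and 160dG arrays for each of the 10 probe sets; whiskers are the SE from the spread of the 3 and 3 arrays, filled points mark groups with no overlap, and the dashed line is the median of all genes at 0.12. PRKG2 is the only one of the 10 probe sets to the right of that line.

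Several of these genes are expressed in vessel walls and glomeruli, and markers of those cells are given here as summed signals. Between successive fetal stages limma called 0 of 7 tested endothelial and 0 of 4 tested podocyte markers. Of 9 tested smooth muscle, pericyte and mesangial markers it called 2, 0 and 1 in the 3 steps, all higher. Over all tested genes these steps called 9.11%, 5.17% and 0.322%. Vascular smooth muscle, pericyte and mesangial markers, of which 12 of 13 had a probe set, summed to a signal of 4555 to 4830 at 60dG, 5198 to 6929 at 90dG, 5712 to 6209 at 125dG, 5531 to 6670 at 160dG and 3804 to 4341 in adults. By the adult rule 3 of the 12 were lower and 1 higher. Over all genes 8.97% were lower and 13.1% higher by that rule, which holds beside each marker count that follows. Endothelial markers, 9 of 9 measured, summed to 2183 to 2367 at 60dG and 2783 to 3413 in the later fetal stages. In adults they summed to 2082 to 2842, where 2 of 9 were lower and 0 higher. Their median difference from 160dG was 0.07, so most of these markers did not share the lower adult sum. Podocyte markers, 5 of 8 measured, summed to 2478 to 4752 at 160dG and 1122 to 1194 in adults, where 3 of 5 were lower. Stroma and fibroblast markers, 7 of 7 measured, summed to 21835 to 25727 at 160dG and 5420 to 8198 in adults, where 5 of 7 were lower, with a median difference of -3.01. The sums for proximal tubule, 5 of 7 measured, were 4324 to 9220 at 160dG and 13520 to 14821 in adults, where 3 of 5 were higher. Those for loop of Henle and distal tubule, 4 of 5 measured, were 2837 to 4393 and 4438 to 5111, where 3 of 4 were higher and 1 lower, with a median difference of 1.25. Their part in the lower NPR1, PDE5A and GUCY1B1 signals and the higher PRKG2 signal was not tested. In whole-kidney RNA fewer cells of a type and less RNA per cell cannot be told apart.

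The rest of the pathway was read from a list of 51 further genes covering peptides, nitric oxide synthesis, other phosphodiesterases, kinase substrates and cGMP-gated channels, of which 35 had a probe set and 18 were tested. The F test called 4 of the 18 in limma: MME, DDAH1, NOSIP and MYLK, and 3 without 60dG replicate 2, when DDAH1 missed; over all tested genes 18.2% were called. From 60dG to 90dG 3 rose and 0 fell, beside 9.11% of all tested genes called, with a median of 0.32 over the 18 against 0.04 over all. Without 60dG replicate 2, a setting added after seeing the data, 0 of the 18 were called in that step, while calls over all tested genes went from 481 to 164. From 60dG to 160dG the count was again 3 up and 0 down (DDAH1, MME and MYLK), beside 11.6% of all tested genes called, with a median of 0.26 against -0.01, and those 3 kept their call without that array. Neither later step called any of the 18 in limma.

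MME is neprilysin, which cleaves natriuretic peptides and other substrates and is abundant at the proximal tubule brush border. Its mean signal was 706 ± 122 (SD, n = 2) at 60dG and 2281 ± 491 (SD, n = 3) at 160dG, a rise of 1.66 ± 0.20 (limma, adjusted p = 8.42e-05). The summed proximal tubule markers were 1302 to 1785 at 60dG and 4324 to 9220 at 160dG, and their part in the MME difference was not tested. DDAH1 breaks down endogenous inhibitors of nitric oxide synthase, and its mean of 369 ± 15.1 (SD, n = 2) at 60dG stood against 1219 ± 202 (SD, n = 3) at 160dG, and it rose by 1.67 ± 0.32 (limma, adjusted p = 0.00372). MYLK, the myosin light chain kinase whose effect cGMP opposes in smooth muscle, had means of 389 ± 59.9 (SD, n = 2) and 1887 ± 809 (SD, n = 3) at these stages and rose by 2.16 ± 0.29 (limma, adjusted p = 0.000255). NOSIP, a protein that binds nitric oxide synthases, was called by the F test alone (limma, adjusted p = 0.0365), with its highest fetal mean, 387 ± 66.2 (SD, n = 3), at 90dG.

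Among the ligands, NPPA, the atrial peptide gene, had means of 257, 263, 224 and 236 over the fetal stages with no call (limma F, adjusted p = 0.888), and 428 in adults. Between 160dG and adults 12 of the 35 measured pathway genes met the 2-fold rule, with a median of 0.34 against 0.12 over all genes, beside 8.97% of all genes lower and 13.1% higher by that rule. Without adult replicate 3, the array with muscle markers, 11 met it: NOSIP and PDE6D missed it and PDE3A came in, lower in adults. Higher in adults were CORIN (1.36) and FURIN (1.44), proteases that process the peptide precursors, NOS1 (1.16), NOSIP (1.07, missed without adult replicate 3), PDE3B (1.70), the potassium channel KCNMA1 (2.88) and the cGMP-gated channel CNGA1 (1.28). Lower were NPPB, the B-type peptide gene (-1.95), DDAH2 (-1.70), PDE6D (-1.09, likewise missed without that array), PDE9A, a phosphodiesterase for cGMP (-1.88), and PPP1R12A, a myosin phosphatase subunit (-1.40). NPPB, CORIN, PDE3B, PDE9A and CNGA1 lay below the filter, and their differences depend on the pseudocount. The adult mean signal of NPPB, 6.53, lay under the pseudocount of 16, so its value is no measure of size. KCNMA1, an ion channel that cGMP-dependent kinase can open, stood out by size, at 253 ± 93.3 (SD, n = 3) at 160dG and 1973 ± 630 (SD, n = 3) in adults.

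Likeness to the 4 tested genes was measured as the Pearson correlation of log2 values over the 11 fetal arrays, which share their stages and array type, and the 3 nearest genes were taken for each. For NPR3 they were CHD9 (0.92), RPA2 (0.91) and SEC62 (0.90). The SEC62 means, 1212, 539, 716 and 1415 from 60dG to 160dG, have the same low at 90dG as NPR3. For NPR1 they were TCTA (0.87), EHD2 (0.87) and RGS3 (0.87), and for GUCY1A1 MXI1 (0.90), ASPN (0.86) and CAT (0.85). For GUCY1B1 the nearest were CDC40 (0.80), PSME4 (0.76) and TEFM (0.76), lower values than for the other 3 genes.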

How the data were processed

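Total RNA of whole kidney was hybridised to Affymetrix arrays. The authors deposited 1 intensity per probe set and array, on a linear scale. Per the submitters' processing notes GCOS was used; its version, its signal algorithm and any scaling target were not given in the sources used here. Trimmed means (2% off each end) had a highest to lowest ratio of 1.02 over the fetal and 1.07 over all 14 arrays, and no rescaling was applied.

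Groups came from the labels and gene names from the platform annotation, where 14068 probe sets have 1 symbol, 735 several and 1340, besides 43 controls, none. Each of 9580 genes was read from its brightest probe set over the fetal arrays, and values were taken as log2(signal + 16), which understates changes of dim genes. Genes with a mean above the median of all probe sets (7.60 in log2) were tested with limma 3.58.1 in R 4.3.3 (lmFit, then eBayes with its trend option) over the 11 fetal arrays, for an F over the stages, each step, 160dG against 60dG and a slope per 10 days. Adult and 160dG arrays were compared without a test. The model was tested on simulated data.

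The members, gene lists and tests were chosen with earlier results of these data known. Named were all members, every further pathway gene that was called, and the 3 genes most correlated with each tested member. NPPA and the markers given by name were added after their values were seen. Alternatives were a pseudocount of 1 or 64, quantile normalization, no filter or one at the 0.75 quantile, eBayes with no trend, array weights, a replicate block, all probe sets, the GAPDH ratio as a covariate, and leaving out the 90dG group or each array. Counts of other pathway genes without the arrays that carry adrenal or muscle markers were added after seeing the data. Plots were made in matplotlib 3.10.9.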

Additional observations from a re-analysis of the deposited data

How the results depend on the processing

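Of 565 alternative values of single genes, 526 kept their direction and side of the threshold or stayed within the spread. The other 39 did not, and 0 reversed. A gene that stayed below the threshold was counted as kept whatever its sign. Many values belong to results without a call, or to settings without an array of another stage, which cannot change the difference. Among called results, the NPR3 F test lost its call in 0 of 21 alternatives and its fall to 90dG in 3 of 20. The NPR3 rise to 160dG lost it in 17 of 21 and the GUCY1A1 slope in 9 of 21. The count of tested members called by the F test was 0 with the filter at the 0.75 quantile, which left only GUCY1B1 among the tested genes. That filter also gave 0 for the step from 60dG to 90dG, the step from 125dG to 160dG and the slope. The step from 60dG to 90dG gave 0 with the GAPDH ratio as a covariate and 0 to 1 when each array was left out in turn. The step from 125dG to 160dG gave 0 with a pseudocount of 1, no filter, eBayes without a trend, all probe sets, the 90dG group left out or the GAPDH covariate, and 0 to 1 with single arrays left out. The difference between 60dG and 160dG called 1 member, GUCY1A1, with array weights (limma, adjusted p = 0.0448) or without the 90dG group (adjusted p = 0.0496), and 0 to 1 with single arrays left out. The slope called 0 without a filter, and 0 to 1 with single arrays left out. Leaving out a 60dG array leaves 1, whose spread is then taken from the other stages. Deviations from the stage means of same-numbered arrays of different stages correlated at -0.11 to 0.18 (median 0.01, over 15 pairs). Those of arrays with different numbers correlated at -0.18 to 0.17 (median -0.01, over 30 pairs). With so few arrays in a stage the deviations are tied to each other, so they cannot decide whether the numbers pair the samples. With the number as a replicate block the step from 125dG to 160dG called 0 (NPR3, limma, adjusted p = 0.0526), the slope called 0 (GUCY1A1, adjusted p = 0.0613), and NPR3 kept its call from 60dG to 90dG. Against 160dG, 1 to 4 members met the adult rule with single arrays left out, and 1 without 160dG replicate 1 (PDE5A). Chosen after seeing the data, leaving out 60dG replicate 2 took the other pathway genes called from 60dG to 90dG from 3 to 0. PRKG2 and PDE5A lay below the filter, where the signal limits what a fit can show.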
